A study of Mus musculus with 4 samples.

Results

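The genes described here are the nuclear genes for the 5 complexes of oxidative phosphorylation. They were taken by name: every gene whose symbol starts with Nduf, Sdh (a to d only), Uqcr, Cox4, Cox5, Cox6, Cox7, Cox8 or Atp5, without Cox8b. The rule found 92 of the 27998 genes listed in the files, of which 27645 had a symbol. Complex I, which takes electrons from NADH, gave 44 genes, of which 7 encode core subunits, 29 accessory subunits and 8 assembly factors (the Ndufaf genes). Complex II gave 4, complex III 8, complex IV 19 and complex V, the ATP synthase, 17. Ndufa4 and Ndufa4l2 were placed with complex IV, where their proteins act. In all, 83 encode subunits or subunit isoforms and 9 encode factors. Of these genes 3, Ndufa1, Ndufb11 and Cox7b, lie on the X chromosome. At least 1 molecule was counted in every library for 90 of them, and Cox7b2 had none anywhere.

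The study sequenced RNA of single cells from C57BL/6 mouse aorta in 4 libraries. Descending a and descending b, as they are called here, hold cells scraped off the luminal face of the descending aorta of aged mice, with 6 mice in each pool. The arch library holds luminal cells of the aortic arch of 8 pooled young mice. The adventitia library holds cells of the outer coat of aged mice, and how many mice it pooled is not given. Ages come from the sample titles, sex is not given, and the labels describe the luminal protocol for the adventitia too. Trypsin, scraping, actinomycin D (which blocks transcription) and red cell lysis were used. Region, age and library cannot be told apart for the arch, nor layer and library for the adventitia. The labels do not say that the descending libraries came from separate animals beyond their pools, so p-values here measure how far these libraries spread, and that spread may be technical.

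Oxidative phosphorylation couples the oxidation of NADH and succinate to the making of ATP in the inner mitochondrial membrane. Complexes I, III and IV pump protons, complex II feeds electrons in from the citric acid cycle without pumping, and complex V uses the gradient. Most subunits are encoded in the nucleus and a small core by mitochondrial DNA, so both genomes must supply parts. Several complex IV subunits have a general form and a form restricted to muscle, brown fat, testis or cells exposed to low oxygen. Brown fat, which surrounds much of the thoracic aorta in mice, is rich in mitochondria.

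The files held 2095 to 9347 barcodes and 13181305 to 29370967 unique molecular identifiers (UMIs, 1 per RNA molecule captured) per library, with a median of 2524 (adventitia) to 6989 (arch) UMIs per barcode. After cell filters, 1988, 2091, 2114 and 7904 cells of descending a, descending b, arch and adventitia were kept, and pairs of libraries shared 4 to 31 barcodes. Cells were clustered without the 92 genes and without mitochondrially encoded genes, so that these genes could be compared between classes. Clusters were named from marker lists ("endothelial-like" and so on, from RNA only). In the order given above there were 1462, 1285, 1242 and 307 endothelial-like cells, 82, 70, 115 and 666 macrophage-like cells, and 337, 648, 436 and 1445 fibroblast-like cells. The adventitial endothelial-like and fibroblast-like cells mostly formed other clusters than the luminal ones, whereas 548 of the 666 adventitial macrophage-like cells shared a Cd163 cluster with luminal ones. Adventitial endothelial-like cells lay almost wholly in a cluster led by Car4, a capillary gene, which held 301 of the 307. Adventitial fibroblast-like cells lay mainly in clusters led by Cxcl14 (908 cells) and Ptx3 (494 cells), against a Dact2 cluster in the luminal libraries.

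Together the 92 genes supplied between 2.05% and 2.76% of all UMIs in the 3 main classes of the luminal libraries, and between 3.28% and 4.20% in those of the adventitia. In endothelial-like cells the summed share was 2.38% in descending a, 2.43% in descending b, 2.76% in the arch and 4.20% in the adventitia. Macrophage-like cells gave 2.05%, 2.15%, 2.06% and 3.36% in the same order, and fibroblast-like cells 2.14%, 2.18%, 2.28% and 3.28%. In each class the adventitial library stood above the 3 others, and in endothelial-like cells the arch also stood above both descending libraries. Against the mean of the descending libraries the adventitial share was 1.75 times as high in endothelial-like, 1.60 times in macrophage-like and 1.52 times in fibroblast-like cells. The arch shares were 1.15, 0.983 and 1.05 times. In these data a lower share of molecules from other genes and more molecules of these genes per cell cannot be told apart.

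**Figure D1:**
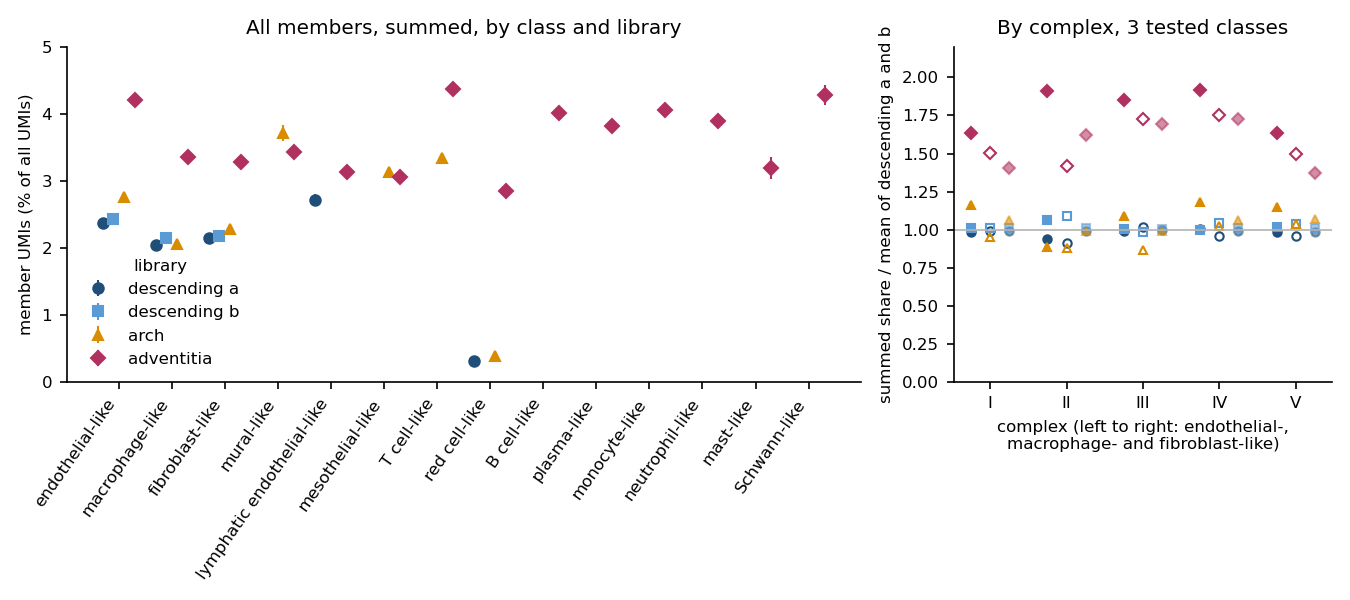
Left, the summed share of the 92 genes among all UMIs (percent) for each class with at least 20 cells in a library and for the 16 arch mural-like cells, with 95% exact binomial intervals that cover counting error only. Right, the share of each complex divided by the mean of descending a and b, for endothelial-like (filled), macrophage-like (open) and fibroblast-like (pale) cells, where all adventitial points lie above 1.

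Inside the Cd163 and Dact2 clusters the adventitial share also stood above the luminal ones. Macrophage-like cells of the cluster led by Cd163, a scavenger receptor of resident macrophages, gave 2.17%, 2.24% and 2.11% in descending a, descending b and arch and 3.50% in the adventitia. The 43 adventitial cells in the Dact2 fibroblast cluster gave 3.15%, against 2.14% to 2.28% in the luminal libraries. The luminal Mmp12 macrophage cluster, which has no adventitial cells, gave 2.05% in the arch and 1.78% in descending a. It held 74 of the 115 arch macrophage-like cells, 25 of the 82 of descending a and 17 of the 70 of descending b. The part of this make-up in the macrophage-like values of the arch was not tested.

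Other classes spread more widely. Red-cell-like barcodes of the luminal libraries had the lowest shares, 0.311% in descending a and 0.392% in the arch, and those of the adventitia gave 2.85%. Red cells lose their mitochondria as they mature. Arch cells of the mural type (smooth muscle and pericytes) gave 3.71%, though from 16 cells, and adventitial ones 3.43%. Mesothelial-like cells, the lining of the body cavities, gave 3.14% in the arch and 3.06% in the adventitia. T-cell-like cells gave 3.35% in the arch and 4.37% in the adventitia. In the arch they split into a Dntt cluster (an early thymocyte gene) at 3.57% and a Ccr9 cluster at 2.28%. Adventitial B-cell-like, plasma-like, monocyte-like, neutrophil-like and Schwann-like cells lay between 3.82% and 4.28%, and mast-like cells gave 3.19%.

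Between classes, macrophage-like and endothelial-like cells of the 3 luminal libraries were compared on UMIs summed per library and class. Cox7a1, the muscle and brown-fat form of a complex IV subunit, had 3, 6 and 9 UMIs in macrophage-like cells of descending a, descending b and arch. Per 1000000 UMIs of the sum (CPM) these counts were 8.64, 17.1 and 10.2, against 1.34, 2.62 and 3.58 CPM in endothelial-like cells. The groups did not overlap, and the log2 fold change was 2.43 (SE 0.51). Cox7a1 passed the filter on low counts only through the macrophage-like sums, so its direction was fixed beforehand. Its call is among the higher genes counted in the next paragraph and adds no support. Cox5a, a common complex IV subunit, stood at 265, 398 and 436 CPM against 245, 266 and 294, a log2 fold change of 0.74 (SE 0.15). Here 1 macrophage value, that of descending a, lay among the endothelial ones. Sdhb, the iron-sulphur subunit of complex II, followed with 161, 213 and 221 CPM against 145, 160 and 161 (0.66, SE 0.15).

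In all, 9 of the 88 genes that passed the filter on low counts were higher in macrophage-like cells and 3 were lower. Of all 11834 genes tested, 19.4% were higher and 22.9% lower, and neither count of the oxidative phosphorylation genes stood above its background share. Besides those above, Atp5mpl (0.77), Ndufs8 (0.69), Cox7b (0.55), Atp5e (0.44), Ndufb8 (0.40) and Atp5c1 (0.36) were higher. Atp5mpl, Atp5e and Atp5c1 belong to the ATP synthase, and Ndufs8 is a core iron-sulphur subunit of complex I. The lower genes were 3 accessory subunits of the membrane arm of complex I. Ndufb2 gave 150, 122 and 113 CPM in macrophage-like against 213, 213 and 240 in endothelial-like cells (log2 fold change -0.50), Ndufb4 -0.46 and Ndufb11 -0.45. The median log2 fold change was -0.03 over these genes and -0.17 over all genes tested. The counts rested on single libraries: 5 were higher and 1 lower without descending a, 5 and 0 without descending b, and 14 and 3 without the arch.

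Scaling mattered for this comparison. The TMM factors of edgeR raised macrophage-like sums by 0.30 on the log2 scale relative to a scaling by total UMIs. Under total UMIs 14 of the 88 genes lay above 0, against 42 under TMM, and the medians were -0.33 for these genes and -0.47 for all genes. All 9 higher and all 3 lower genes kept their direction under total UMIs.

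Fibroblast-like cells were compared with endothelial-like cells in the same fit, where 9 of 88 genes were higher and 6 lower. The background was 24.0% higher and 23.6% lower. Complex IV isoforms had the largest log2 fold changes. Ndufa4l2, a relative of Ndufa4 known to be induced by low oxygen, stood at 6.35, 7.57 and 15 CPM in fibroblast-like cells of descending a, descending b and arch and at 0.192, 0.455 and 0.749 CPM in endothelial-like cells. The log2 fold change was 4.46 (SE 0.46). Ndufa4l2 passed the filter on low counts only through the fibroblast-like sums, so its direction was fixed beforehand. Its call is among the 9 higher genes and adds no support. Cox6b2, known as the testis form of Cox6b, gave 49.7, 32.2 and 14.7 CPM against 12.9, 14.3 and 10.2 (1.42, SE 0.22). Fibroblast values were above the endothelial value of the same library each time, by least in the arch.

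The general complex IV subunits Cox7a2 and Ndufa4 were lower. Cox7a2 gave 360, 373 and 382 CPM in fibroblast-like and 612, 593 and 705 CPM in endothelial-like cells, a log2 fold change of -0.62 (SE 0.14) without overlap. Ndufa4 gave 365, 446 and 480 against 633, 708 and 791 (-0.57, SE 0.14), also without overlap. Cox5a (-0.44), Uqcrb of complex III (-0.39), Ndufa6 (-0.37) and Ndufb3 (-0.36) of complex I were lower too. The other higher genes were the assembly factors Ndufaf7 (0.69) and Ndufaf2 (0.39), the complex V subunits Atp5o (0.59), which joins the stalk to the catalytic head, and Atp5mpl (0.38), and Cox7b (0.53), Ndufv3 (0.45) and Ndufa11 (0.34). No member of complex II was called. The median was -0.00 over these genes and -0.02 over all genes. Without descending a, 3 were higher and 1 lower; without descending b, 4 and 2; without the arch, 16 and 7. TMM raised the fibroblast-like sums by 0.15 relative to total UMIs, under which 27 of the 88 genes lay above 0 against 44, and all 15 called genes kept their direction.

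**Figure D2:**
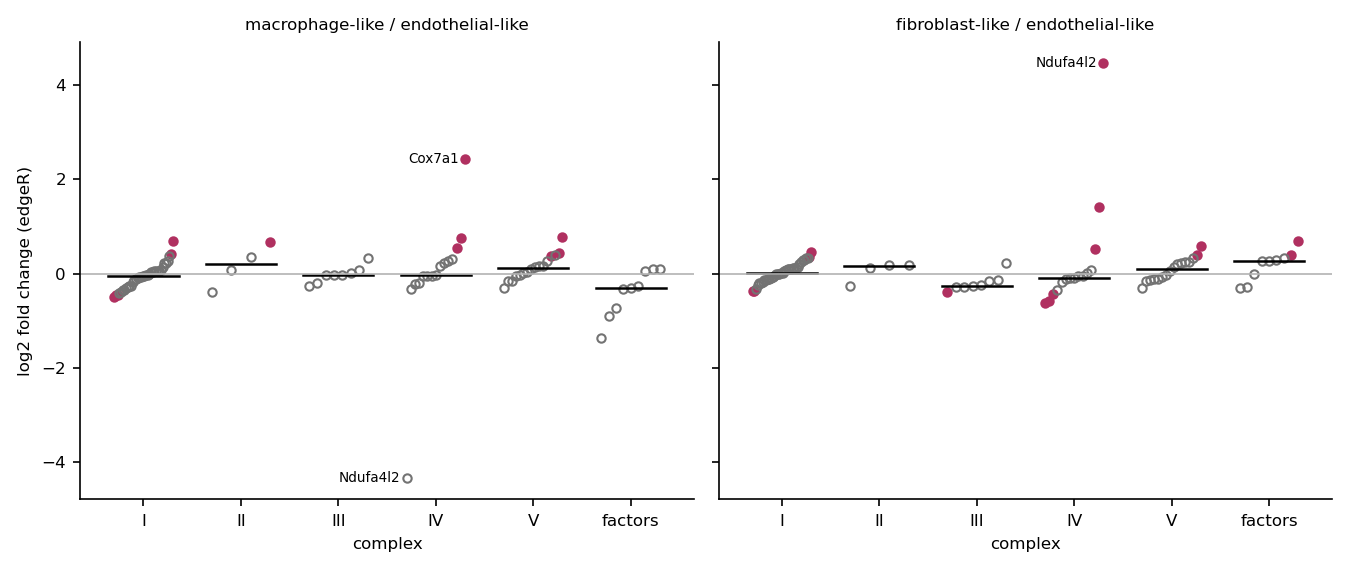
Log2 fold change (edgeR, TMM scaling) of each tested gene between classes of the 3 luminal libraries, by complex; "factors" are the Ndufaf genes and Atp5s. Filled points passed an adjusted p of 0.05, open points did not, and black lines mark medians, which lie near 0; Ndufa4l2 had no UMI in macrophage-like cells.

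Markers of other classes were present in these sums. The 12 endothelial markers summed to 994.7 to 1195 CPM in luminal macrophage-like cells, against 7457 to 10549 CPM in luminal endothelial-like cells. They summed to 809 to 1030 CPM in luminal fibroblast-like cells. Their part in the class differences was not tested.

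The arch was next compared with the 2 descending libraries within each class. In endothelial-like cells 6 of 89 genes were higher in the arch and 0 lower, where 7.13% of the 12867 genes tested were higher and 5.88% lower. Ndufa1, an X-linked accessory subunit of complex I, gave 133 and 182 CPM in descending a and b and 221 in the arch (log2 fold change 0.56, SE 0.16). Ndufb9 gave 210 and 218 against 297 (0.54, SE 0.16), and Ndufs8 81.5 and 74.1 against 107 (0.53). Atp5o gave 182 and 185 against 246 (0.49), Atp5g1 294 and 289 against 376 (0.44), and Cox7a1 1.34 and 2.62 against 3.58 (0.95). The arch value lay above both descending values in each of the 6. Cox7a1 had 14, 23 and 43 UMIs there. Of the 6 other settings run, 4 kept the calls of Ndufb9 and Ndufs8 and 3 those of Ndufa1 and Atp5o. The call of Atp5g1 was kept in 2 and that of Cox7a1 in 1. Arch endothelial-like cells lay mostly in clusters led by Gdf6 (608 cells) and Serpina1b (542 cells), and descending ones mostly in clusters led by Nkx2-3, Adra2a and Mal. Within the Gdf6 cluster the summed share of the 92 genes was 2.49% and 2.47% in the descending libraries and 2.78% in the arch, and within the Serpina1b cluster 2.44%, 2.55% and 2.75%. Below the threshold the shift was broad: 79 of 89 log2 fold changes were above 0, with a median of 0.25 against -0.01 for all genes. Under total UMIs 73 were above 0 and the median was 0.18. DESeq2 called 0 of them (3 at an unadjusted p under 0.05, against 25 in edgeR), and a fit of 3 classes together also called 0 (14 unadjusted).

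Of the 4 complex II genes none was called in the arch endothelial-like cells, and their log2 fold changes ranged from -0.31 (Sdha) to 0.15 (Sdhb). Sdha, the flavin subunit, gave 171 and 188 CPM in the descending libraries and 138 in the arch (-0.31, adjusted p = 0.22). Its values were 127, 122 and 70.1 CPM in macrophage-like cells (-0.73) and 132, 127 and 111 in fibroblast-like cells (-0.20), below both descending libraries each time and not called. Sdhb lay above both descending libraries in each class (0.15, 0.33 and 0.29) and was not called either. Tnnt2 (4.29) and Mb (3.15) of 3 striated muscle genes tested, Fabp4 (1.28) and Car3 (5.09) of 10 fat genes and 3 of 4 haemoglobin genes were called higher in the arch endothelial-like sum. Striated muscle RNA took 0.000666% of its UMIs against 0.000288% and 0.000148%, and fat RNA 0.0256% against 0.0123% and 0.0101%; Ucp1 had no UMI in these sums. Thymocyte markers were at a higher level in the arch sum, at 57.4 CPM against 1.3 and 1.4. Endothelial markers summed to 7457 CPM against 10132 and 10549, and median depth was 8394 UMIs per cell against 5740.5 and 5373. Their part in the arch values was not tested.

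In macrophage-like cells no gene of the 83 tested was called between arch and descending libraries by edgeR, with 6 at an unadjusted p under 0.05, and DESeq2 called 0 (0 unadjusted). The background was 5.50% in either direction. The lowest adjusted p was that of Atp5g1, at 250 and 287 CPM against 402 (log2 fold change 0.68, adjusted p = 0.10). In fibroblast-like cells 1 of 89 was higher and 1 lower, beside 2.77% and 2.21% of all genes tested. Cox6b2 fell from 49.7 and 32.2 CPM to 14.7 in the arch (-1.42, SE 0.29, edgeR adjusted p = 5.7e-05), a call lost only with DESeq2. Ndufa4l2 gave 6.35 and 7.57 CPM against 15 (1.10, SE 0.36, adjusted p = 0.045). That call was lost in each of the 6 other settings run. The sign turned, to -0.75 (adjusted p = 0.81), when the 92 genes and mitochondrially encoded genes were used in clustering.

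The adventitia gave the widest differences from the descending libraries, with most genes of complexes I, III, IV and V higher in all 3 classes. In endothelial-like cells 67 of 89 were higher and 0 lower, beside 18.4% higher and 18.2% lower among all genes. In macrophage-like cells 54 of 83 were higher and 0 lower (7.58% and 5.72%), and in fibroblast-like cells 62 of 89 were higher and 1 lower (14.4% and 10.7%). The medians were 0.91, 0.84 and 0.70 on the log2 scale, against -0.14, -0.07 and -0.01 over all genes tested. Scaled by total UMIs the medians were 0.80, 0.64 and 0.54, and all called genes kept their direction. DESeq2 called 59, 13 and 24 higher, all of them among those called by edgeR. For macrophage-like cells edgeR without the low-count filter called 0, with 64 at an unadjusted p under 0.05, and the fit of 3 classes together called 58, including all 54.

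**Figure D3:**
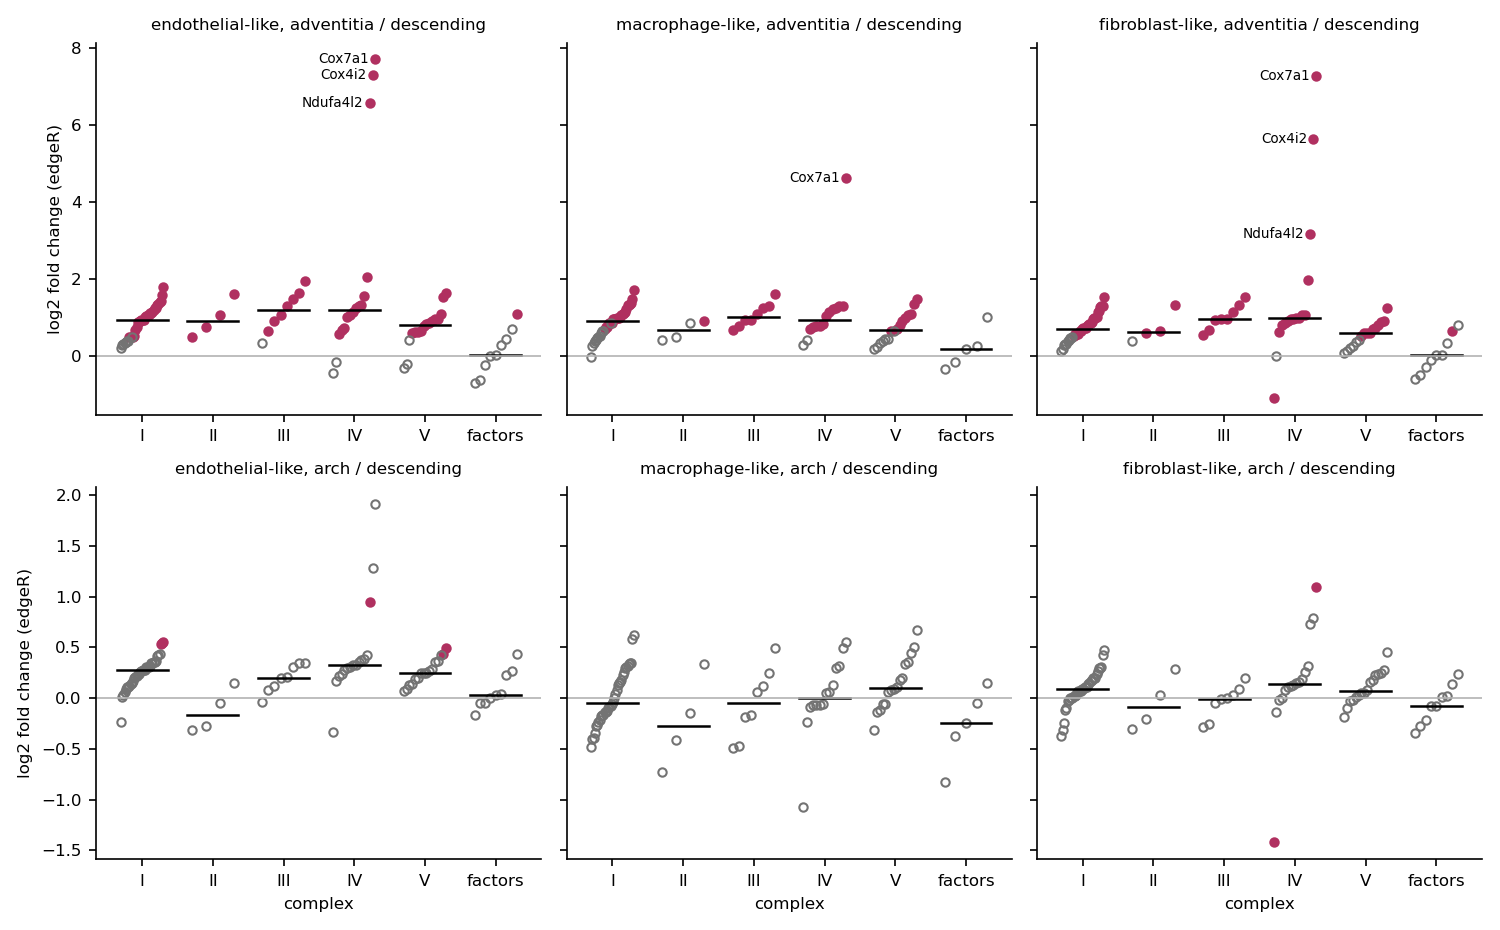
Log2 fold change (edgeR, TMM scaling) of each tested gene in the adventitia (top) and the arch (bottom) relative to the 2 descending libraries, by complex and class; "factors" are the Ndufaf genes and Atp5s. Filled points passed an adjusted p of 0.05 and black lines mark medians; the 2 rows have different vertical scales.

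In endothelial-like cells 29 of the 44 complex I genes were higher, in macrophage-like cells 24 of 41 and in fibroblast-like cells 27 of 44. Ndufab1, the acyl carrier protein of the mitochondrion and a complex I subunit, gave 149, 170 and 439 CPM in descending a, descending b and adventitia among endothelial-like cells (1.57, SE 0.16). It gave 109, 105 and 309 CPM among macrophage-like cells (1.72, SE 0.26) and 139, 129 and 343 among fibroblast-like cells (1.52, SE 0.20). Ndufv1, which binds NADH, rose in each class, by 1.25, 1.35 and 0.98. Ndufb9 (1.80, 1.31 and 1.29) and Ndufb6 (1.24, 1.49 and 1.29), accessory subunits of the membrane arm, rose as well, and in macrophage-like cells Ndufv2 (1.39), a core iron-sulphur subunit, and Ndufb5 (1.32) were among the largest rises. Ndufs1, the largest core subunit, was called only in fibroblast-like cells (0.65, against 0.49 and 0.84 in the other classes), and that call was lost in 3 of the 6 other settings run (DESeq2, the 92 genes used in clustering, and the 3 classes in one fit). The assembly factors rose less, with medians of 0.15, 0.17 and 0.02, against -0.14, -0.07 and -0.01 over all genes tested. Ndufaf4 gave 1.09, 1.01 and 0.64 in the 3 classes. Some of these factors had few UMIs, such as Ndufaf7 with 2 and 9 in the descending macrophage-like sums.

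Sdhb gave 145, 160 and 428 CPM in endothelial-like, 161, 213 and 307 in macrophage-like and 149, 139 and 317 in fibroblast-like cells, with log2 fold changes of 1.60, 0.91 and 1.31. Of the 4 complex II genes, 4, 1 and 3 were called in the 3 classes. In endothelial-like cells Sdha was the weakest of them (171, 188 and 234 CPM, 0.49), and its call was lost in each of the 4 other settings run. Of the 8 complex III genes 7, 8 and 8 rose. Uqcrfs1, the Rieske iron-sulphur protein, gave 139, 163 and 432 CPM in endothelial-like, 127, 117 and 325 in macrophage-like and 108, 127 and 302 in fibroblast-like cells. Its log2 fold changes were 1.63, 1.62 and 1.52. Uqcrq, a small accessory subunit, rose by 1.95, 1.29 and 1.32, and Uqcrc1, a core protein of the matrix side, by 1.07 in endothelial-like cells (187, 172 and 348 CPM).

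In complex IV, 14 of 16, 12 of 14 and 14 of 16 genes were higher. Cox5a, which lies on the matrix side, stood at 245, 266 and 972 CPM in endothelial-like cells (2.04, SE 0.16, edgeR adjusted p = 1.8e-25). It stood at 265, 398 and 709 CPM in macrophage-like cells (1.30, SE 0.24) and at 161, 170 and 578 CPM in fibroblast-like cells (1.97, SE 0.20). The arch, at 294, 436 and 204 CPM, lay nearer the descending libraries each time. Cox4i1, the general form of subunit 4, gave 1227, 1062 and 2135 CPM in endothelial-like cells (1.01), with 1.23 in macrophage-like and 1.06 in fibroblast-like cells. Cox5b (1.33, 1.25 and 1.07), Cox6b1 (1.30, 1.04 and 0.99), Cox6a1 (1.23, 0.69 and 0.80) and Cox8a (1.06, 0.82 and 0.90) rose as well, and Cox7a2 by 0.72 in endothelial-like cells (612, 593 and 922 CPM). Cox7a2l, which ties complexes III and IV into supercomplexes, was not called in any class: it gave 642, 547 and 495 CPM in endothelial-like cells (-0.16), with 0.41 in macrophage-like and -0.00 in fibroblast-like cells.

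In complex V the subunits differed: 13 of 17 genes were higher in endothelial-like, 9 of 16 in macrophage-like and 10 of 17 in fibroblast-like cells. Atp5b, the catalytic beta subunit, rose by 1.52, 1.48 and 1.25, and Atp5a1, the alpha subunit, by 0.95, 1.06 and 0.88. Atp5o gave 182, 185 and 532 CPM in endothelial-like cells and rose by 1.64, 1.35 and 0.92. The 3 genes for subunit c of the rotor were not called in any class. Atp5g1 gave 294, 289 and 217 CPM in descending a, descending b and adventitia among endothelial-like cells (-0.31), and 0.38 and 0.36 in macrophage-like and fibroblast-like cells. Atp5g2 gave log2 values of -0.21, 0.45 and 0.12, and Atp5g3 0.41, 0.18 and 0.08. Among the UMIs of the 3 genes, Atp5g1 took 28.8% to 47.5%, Atp5g2 36.4% to 50.4% and Atp5g3 12.2% to 27.1% over the 12 sums of the 3 main classes.

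The largest log2 fold changes in the adventitia were those of restricted complex IV isoforms. Some of these genes passed the low-count filter only through the adventitial sum, so their direction was fixed beforehand. They were Cox4i2 in endothelial-like and fibroblast-like cells, Ndufa4l2 in endothelial-like cells and Cox7a1 in fibroblast-like cells. Their calls are among the higher genes counted above and add no support. Cox7a1 had 14, 23 and 43 UMIs in endothelial-like cells of descending a, descending b and arch and 406 in the adventitia, which were 1.34, 2.62, 3.58 and 377 CPM. Relative to the descending libraries summed, its level was 195 times as high, with a 95% counting interval of 139 to 282 (log2 fold change 7.70, SE 0.21). In macrophage-like cells it gave 8.64, 17.1, 10.2 and 280 CPM (4.63, SE 0.38) and in fibroblast-like cells 1.06, 2.21, 2.93 and 250 CPM (7.27, SE 0.30). Its level was similar across all 14 adventitial classes, between 146 CPM (mesothelial-like) and 456 CPM (Schwann-like), a 3-fold range. Among the UMIs of Cox7a1 and its general counterpart Cox7a2 it made up 20.3% to 41.6% over the 14 adventitial classes. In the 9 luminal sums of the 3 main classes it made up 0.219% to 3.45%.

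RNA of brown fat moved with it. Ucp1, the uncoupling protein that defines brown fat, stood at 393 to 1429 CPM in all 14 adventitial classes. In luminal sums Ucp1 ranged from 0 UMIs to 2.26 CPM, which was 2 UMIs in 1 arch macrophage-like cell. Cox8b, the muscle and brown-fat form of subunit 8 that the naming rule leaves out, stood at 336 to 1030 CPM in the adventitial classes. In the luminal main classes Cox8b ranged from 0 UMIs to 3.65 CPM. For each UMI of Ucp1 the adventitial classes held 0.293 to 0.432 UMIs of Cox7a1, and for each UMI of Cox8b 0.353 to 0.682. The 7 adipocyte markers (Adipoq, Plin1, Cidec, Ucp1, Cidea, Lipe and Pnpla2) summed to 2752 CPM in endothelial-like, 1453 in macrophage-like and 1562 in fibroblast-like cells of the adventitia, with all 7 detected in the first. The luminal sums were 30.3 to 125 CPM. A list of 11 fat genes that includes Fabp4, which capillary endothelium also expresses, took 3.60% of endothelial-like UMIs in the adventitia, 0.551% of macrophage-like and 0.528% of fibroblast-like UMIs. In the luminal main classes it took at most 0.0256%. The part of this RNA in the adventitial values of the 92 genes was not tested.

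**Figure D4:**
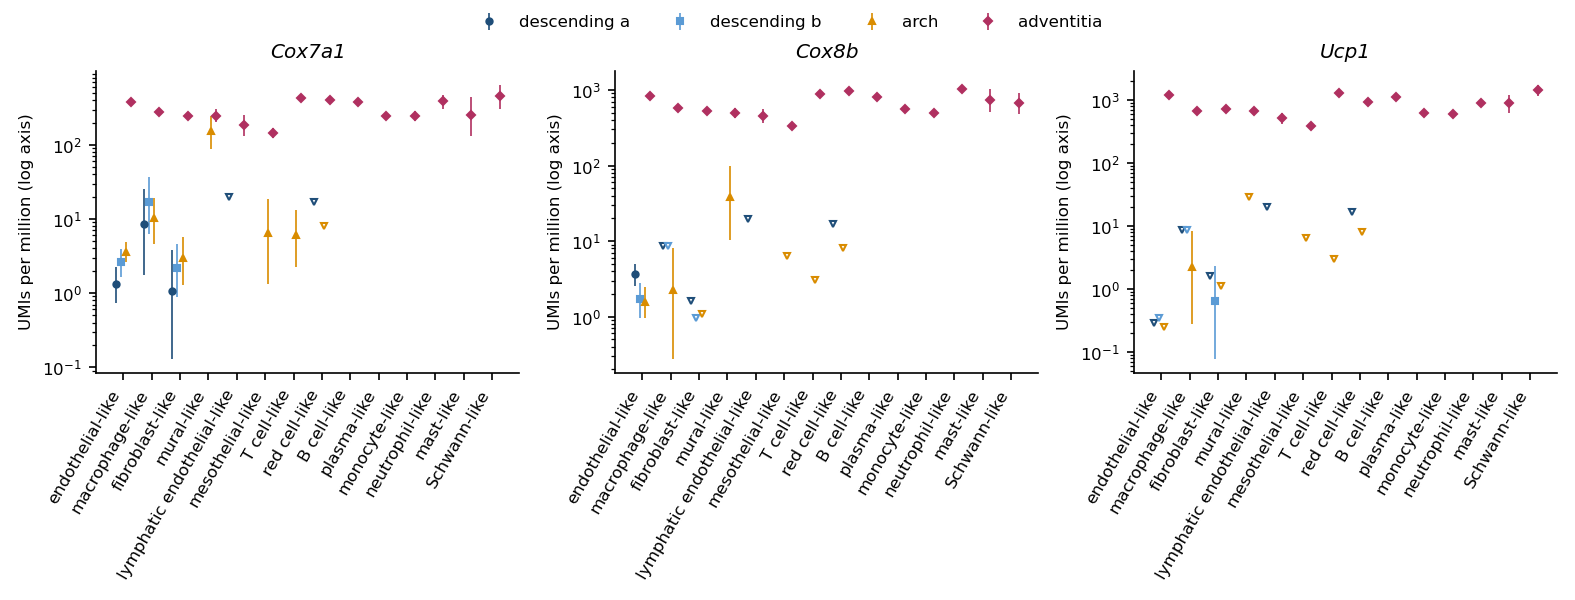
Levels of Cox7a1 (one of the 92 genes) beside Cox8b and Ucp1 (not among them) in CPM on a log axis, by class and library. Bars are 95% exact Poisson intervals for counting error, and open triangles mark the level that 3 UMIs would give where none was counted; all adventitial classes lie between 146 and 1429 CPM.

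Other values moved with the adventitia as well. Mitochondrially encoded subunits took 4.94% of endothelial-like UMIs in the adventitia against 3.43% and 3.04% in the descending libraries, 4.99% against 3.32% and 3.74% in macrophage-like and 3.96% against 2.61% and 2.57% in fibroblast-like cells. Median depth was lower, at 2672, 3471 and 3398 UMIs per cell against 4022.5 to 5740.5 in the descending classes. Haemoglobin RNA took 0.975% of adventitial endothelial-like UMIs against 0.143% and 0.0749%. Whether these values bear on the rise was not tested. With mitochondrially encoded genes left out of the total, the adventitial shares of the 92 genes were 1.78, 1.63 and 1.54 times the descending mean.

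Promoters of isoform pairs that differed in these data are shown for comparison. The 250 bases before the start site of Cox7a1 (GRCm38.p6, chr7:30183921-30184170, plus strand) and of Cox7a2 (chr9:79759854-79760103, minus strand) held none of the 6 motifs searched, which are named further on.
Cox7a1: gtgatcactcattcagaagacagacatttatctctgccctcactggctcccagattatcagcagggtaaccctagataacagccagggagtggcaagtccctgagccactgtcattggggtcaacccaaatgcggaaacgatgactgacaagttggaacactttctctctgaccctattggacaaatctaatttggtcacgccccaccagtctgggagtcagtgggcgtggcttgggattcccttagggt
Cox7a2: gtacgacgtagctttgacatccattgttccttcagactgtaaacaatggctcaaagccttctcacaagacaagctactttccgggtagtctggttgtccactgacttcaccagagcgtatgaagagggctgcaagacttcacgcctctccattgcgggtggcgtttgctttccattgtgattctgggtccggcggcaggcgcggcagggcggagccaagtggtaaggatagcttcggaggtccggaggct

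Whether the difference between adventitia and descending libraries itself differed between macrophage-like and endothelial-like cells was tested by an interaction over 12 sums. Of 89 genes 3 were higher and 3 lower, beside 5.78% and 5.73% of all 12798 genes tested. Cox7a1 was lower in the interaction (-2.89, SE 0.68, edgeR adjusted p = 0.00094): its log2 fold change was 4.63 in macrophage-like and 7.70 in endothelial-like cells. Ndufc2 (-0.81) and Ndufs8 (-0.77) were lower too, whereas Atp5g1 (0.81), Atp5g2 (0.78) and Ndufb4 (0.62) were higher, which means a larger macrophage-like than endothelial-like value. DESeq2 kept Cox7a1 and Ndufc2 and no other. The same interaction for the arch gave 0 calls of 89 with edgeR (7 at an unadjusted p under 0.05) and 0 with DESeq2 (4 unadjusted), beside 1.84% of all genes.

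In the adventitial mural-like cells, a Myh11 cluster of 83 cells, Ndufa4l2 stood at 497 CPM (95% counting interval 431 to 570, 205 UMIs). It made up 43.2% (38.7 to 47.7) of the UMIs of Ndufa4 and Ndufa4l2 there. A UMI was found in 66.3% of those cells, and in 53.8% with each cell thinned to 1500 UMIs. Among adventitial B-cell-like cells, taken here as background, the Ndufa4l2 share was 2.42% (1.56% thinned), at median depths of 4259 and 2072 UMIs. The 16 arch mural-like cells had none, where 3 UMIs would have been 28.6 CPM. The class was not made up alike in the 2 libraries: when the 92 genes were used in clustering, a Myh11 cluster of smooth muscle type held 16 arch cells and 12 adventitial cells. Adventitial fibroblast-like cells came next, at 57.3 CPM or 7.37% of the pair, with 87.5 CPM in the Cxcl14 cluster and 9.35 CPM in the Ptx3 cluster. Luminal fibroblast-like cells gave 1.71%, 1.67% and 3.04% of the pair. In adventitial endothelial-like cells 31 UMIs of Ndufa4l2 were 28.8 CPM, against 2 and 4 UMIs in the descending libraries. That was 92 times as high, with a wide counting interval of 37.8 to 269.9 (log2 fold change 6.56). The 8 pericyte markers were all detected in that adventitial sum, at 342 CPM against 65.4 to 104 CPM in the luminal sums; their part was not tested.

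Cox4i2, a form of subunit 4 linked to oxygen sensing, was also highest in adventitial mural-like cells. It stood at 325 CPM in adventitial mural-like cells (134 UMIs), which was 16.4% (13.9 to 19.1) of the UMIs of Cox4i1 and Cox4i2. The arch mural-like cells held 4 Cox4i2 UMIs (38.1 CPM). In adventitial endothelial-like cells 19 UMIs were counted against 1 and 1 in the descending libraries, a ratio of 169 with a counting interval of 40.8 to 1498. In fibroblast-like cells Cox4i2 had 53 UMIs against 0 and 1, a ratio of 53.2 with an interval of 9.15 to 2141. The macrophage-like sums of the descending libraries held none, and 11 UMIs (4.18 CPM) were counted in the adventitia.

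**Figure D5:**
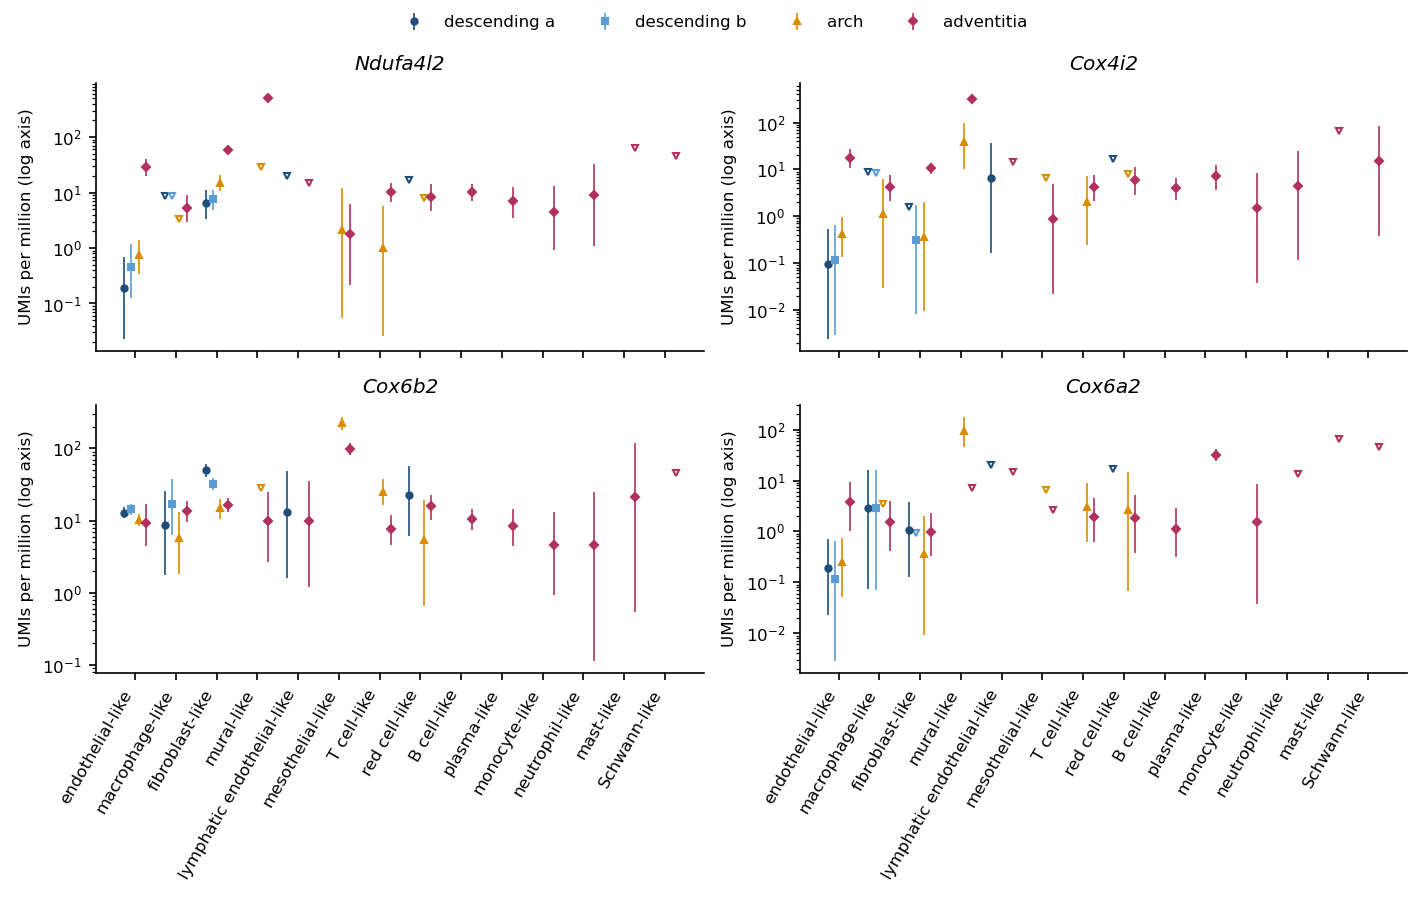
Levels of 4 restricted complex IV isoforms in CPM on a log axis, by class and library, with 95% exact Poisson intervals for counting error and open triangles at the level of 3 UMIs where none was counted. Ndufa4l2 and Cox4i2 are highest in adventitial mural-like cells and Cox6b2 in mesothelial-like cells.

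Cox6b2 was highest in mesothelial-like cells. It stood at 222 CPM in the arch (104 UMIs, 25.1% of the UMIs of Cox6b1 and Cox6b2) and 99.2 CPM in the adventitia (113 UMIs, 10.7%), with intervals of 21.0% to 29.6% and 8.92% to 12.7% of the pair. A Cox6b2 UMI was found in 56.8% of arch and 42.7% of adventitial mesothelial-like cells, at median depths of 8940.5 and 5721.5 UMIs. Thinned to 1500 UMIs the shares were 31.8% and 9.15%, against 2.11% in adventitial B-cell-like cells. Fibroblast-like cells followed with 9.33%, 5.81%, 2.92% and 1.84% of the pair in descending a, descending b, arch and adventitia. The 1 lower call in the adventitia was made there: Cox6b2 fell from 49.7 and 32.2 CPM to 16.7 (log2 fold change -1.09, SE 0.25, edgeR adjusted p = 0.00015), beside a rise of Cox6b1 from 484 and 521 to 890 CPM. DESeq2 did not call the fall. In endothelial-like cells Cox6b2 gave 12.9, 14.3 and 9.28 CPM in descending a, descending b and adventitia, which was not called. The descending libraries themselves differed by over 1.5-fold in Cox6b2.

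The promoter of Cox6b1 (GRCm38.p6, chr7:30626115-30626364, minus strand) held 1 match to the ETS motif and that of Cox6b2 (chr7:4753095-4753344, minus strand) 1 match to the SP motif, both in capitals.
Cox6b1: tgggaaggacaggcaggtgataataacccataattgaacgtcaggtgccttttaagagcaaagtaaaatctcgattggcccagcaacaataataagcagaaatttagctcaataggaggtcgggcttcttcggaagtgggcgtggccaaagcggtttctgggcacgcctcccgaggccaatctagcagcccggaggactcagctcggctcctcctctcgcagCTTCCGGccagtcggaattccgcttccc
Cox6b2: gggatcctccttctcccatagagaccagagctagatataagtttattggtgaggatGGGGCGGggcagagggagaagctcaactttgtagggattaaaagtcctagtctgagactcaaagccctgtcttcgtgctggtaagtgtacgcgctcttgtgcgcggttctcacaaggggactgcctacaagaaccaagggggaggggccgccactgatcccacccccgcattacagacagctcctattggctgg

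The remaining restricted forms were rare. Cox6a2, the heart and skeletal muscle form of Cox6a, had 50 UMIs in 21 of 275 plasma-like cells of the adventitia (32.2 CPM, 3.37% of the UMIs of Cox6a1 and Cox6a2, 2.51% to 4.42%). Other named adventitial classes gave at most 5 UMIs. In the arch an unnamed cluster led by Ear2, of 31 arch cells, gave 63.7 CPM of Cox6a2, and its 247 adventitial cells gave 2.08 CPM. In the arch mural-like cells 10 Cox6a2 UMIs came from 1 of 16 cells, as did all 16 Cox7a1 UMIs and all 136 UMIs of the cardiac troponin gene Tnnt2. Cox8c had 1 UMI in all cells kept, and Cox7b2 none.

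Genes of related pathways were compared in the adventitia as well. Of 18 genes of the citric acid cycle and pyruvate entry, 17, 11 and 15 were higher in endothelial-like, macrophage-like and fibroblast-like cells and none was lower, with medians of 1.33, 1.25 and 1.05. Mitochondrially encoded subunits gave 11 of 13, 8 of 12 and 9 of 13 higher. Cycs, cytochrome c, rose by 3.09, 2.17 and 2.04, and Cyc1, cytochrome c1 of complex III, by 1.80, 1.53 and 1.81. The shares of all genes tested that were higher were 18.4%, 7.58% and 14.4%, as above. Assembly factors outside the naming rule were higher in 10 of 40, 1 of 26 and 9 of 39 cases and lower in 3, 0 and 1. Regulators of mitochondrial biogenesis were higher in 4 of 15, 0 of 6 and 3 of 13; among them Ppargc1a rose in endothelial-like cells (2.14, adjusted p = 0.0089). Glycolysis genes gave 10 of 16, 6 of 14 and 5 of 16 higher. Ribosomal protein genes did not share one direction, with medians of -0.25, 0.55 and 0.14 and 0 higher and 28 lower of 81 in endothelial-like cells against 43 higher and 2 lower of 80 in macrophage-like cells. In the arch endothelial-like sum 1 of 18 citric acid cycle genes was higher, and of the 13 mitochondrially encoded subunits 0 were higher and 1 lower (median -0.14).

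Promoter letters were counted over 300 bases, 250 before and 50 after the start site (RefSeq, GRCm38.p6), on both strands. A window was found for 75 of the 92 genes (80 windows), and gene shares were set beside all 27025 genes and 17492 coding genes of the table. Some windows did not match the gene positions used here. That of Ndufa1 lay on the minus strand, whereas the gene was listed on the plus strand. Those of Atp5d lay inside the listed gene. Both genes had no match to the motifs below and stay in the shares. The NRF1 motif CGCNTGCGC, bound by a regulator of respiratory genes, was in 22 of the 75 genes (29.3%), against 7.03% of all and 9.63% of coding genes. The YY1 motif AANATGGCG was in 11 (14.7%), of which 8 belong to complex I and 3 to complex V, against 2.76% and 3.64%. The ETS motif CCGGAAG was in 18 (24.0%, against 9.93% and 12.9%) and the ERR motif AAGGTCA in 8 (10.7%, against 5.38% and 4.73%). The SP motif GGGGCGG was in 24 (32.0%, against 25.5% and 33.8%) and TATAAA in 6 (8.00%, against 15.7% and 14.8%). Adding matches on both strands counts a near-palindrome such as the NRF1 motif at overlapping places; each gene counts once. The promoter of Cox6a1 (chr5:115348959-115349208, minus strand, 250 bases) shows the first of these, with matches to NRF1, SP and ETS in capitals. These are matches of letters and not measured binding.
Cox6a1: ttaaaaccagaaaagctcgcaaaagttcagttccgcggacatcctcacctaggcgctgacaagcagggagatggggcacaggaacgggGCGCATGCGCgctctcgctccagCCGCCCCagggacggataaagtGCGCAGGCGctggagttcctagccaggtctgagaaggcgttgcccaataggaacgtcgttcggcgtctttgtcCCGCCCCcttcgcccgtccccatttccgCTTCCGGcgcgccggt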

How the data were processed

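The authors' deposited files hold UMI counts per gene and cell barcode, made from 10x Chromium 3′ (kit v2) libraries. Cell Ranger 2.1.2 and the mm10 build were used, per the submitters' processing notes; the annotation release is not given in the sources used here. A 3′ UMI count is 1 per captured molecule and does not grow with transcript length, but capture differs by gene, so levels were not ranked between genes. Reads shared with near-identical pseudogenes of these genes may be missing.

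Barcodes were kept from 200 genes upwards and up to 10% mitochondrial UMIs. Doublets were scored per library with Scrublet in scanpy 1.11.5. Its automatic threshold marked only 2 to 23 barcodes a library, so the highest scores were removed instead, at an assumed rate of 0.8% per 1000 cells (41 to 593 barcodes a library). Cells were clustered on 2000 variable genes without the 92 genes and mitochondrially encoded genes (30 components, 15 neighbours, Leiden at resolution 1). A cluster was named from at least 3 markers. UMI counts were summed per library and class with at least 20 cells, and the 16 arch mural-like cells are given as levels only. Sums were fitted with edgeR 4.0.16 (R 4.3.3; TMM, filterByExpr, quasi-likelihood F test), with Benjamini-Hochberg adjustment over all genes tested and a threshold of 0.05. Class comparisons took the library as a block (9 sums, 4 residual degrees of freedom). Comparisons between libraries used 4 sums and 1 residual degree of freedom, so those p-values rest mostly on the spread pooled over genes, and they share the descending libraries. DESeq2 1.42.0 was an alternative. Adjusted p-values are edgeR's unless another tool is named. The scripts were tested on simulated counts. Intervals are 95%, exact, and cover counting error only; where none was counted the floor is 3 UMIs.

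The text names the largest called changes on the same side in every library, the isoform genes and core subunits of each complex. Members and lists were chosen with earlier results of these data known.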

Additional observations from a re-analysis of the deposited data

Results flagged for a closer look

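For 6 genes the difference between adventitia and descending libraries itself differed between macrophage-like and endothelial-like cells (interaction in edgeR, adjusted over all genes; 12 sums, 2 residual degrees of freedom). Cox7a1 gave an interaction of -2.89 (SE 0.68) on the log2 scale, and Ndufc2 gave -0.81 (SE 0.22). Both calls held in each of the 3 other settings run. Ndufs8 gave -0.77 (SE 0.27), a call lost with DESeq2 and without the low-count filter. Atp5g1 gave 0.81 (SE 0.21), a call lost with DESeq2. Atp5g2 gave 0.78 (SE 0.28) and Ndufb4 0.62 (SE 0.22), and both calls were lost with DESeq2 and with doublets kept. Cox7a1 stood in descending macrophage-like cells at 8.64 and 17.1 CPM, from 3 and 6 UMIs, against 1.34 and 2.62 CPM in endothelial-like cells. Groups of 3 or fewer libraries were not examined for a library far from the others.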

How the results depend on the processing

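Counts of called genes depended on the test more than their direction did. DESeq2 gave 16 higher genes for macrophage-like against endothelial-like cells and 15 for fibroblast-like cells, 0 for arch endothelial-like cells, 0 higher and 0 lower for arch fibroblast-like cells, 13 for adventitial macrophage-like cells, 24 higher and 0 lower for adventitial fibroblast-like cells, and 0 higher in the adventitial interaction. Without the low-count filter there were 8 lower macrophage-like genes and 0 higher ones in adventitial macrophage-like cells. With all 4 libraries the class comparisons gave 5 higher and 0 lower (macrophage-like) and 3 and 3 (fibroblast-like). Leaving out 1 library gave 5 to 14 higher and 0 to 3 lower macrophage-like genes and 3 to 16 higher and 1 to 7 lower fibroblast-like genes; the high ends were without the arch. With doublets kept, 2 were higher in arch endothelial-like cells and 1 in the adventitial interaction. A fit of 3 classes together, chosen after seeing the data, gave 0 for arch endothelial-like cells. The 1 higher gene in arch fibroblast-like cells, Ndufa4l2, was lost (0 higher) with no filter, up to 20% mitochondrial UMIs, doublets kept, the 92 genes used in clustering and the joint fit as well, and its log2 fold change turned to -0.75 when the 92 genes were used in clustering. The causes were not tested.

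The adventitial share of the 92 genes relative to the descending mean moved to 1.78 (endothelial-like) and 1.54 (fibroblast-like) without mitochondrially encoded UMIs. As a mean over cells it was 1.96, 1.69 and 1.58 in endothelial-like, macrophage-like and fibroblast-like cells, and the arch fibroblast-like ratio was 1.07. For single genes under the alternatives, 1491 values stayed called or stayed uncalled, 131 lost the call and 11 gained it. In 1 case a called gene turned sign. Values uncalled under both settings were counted as kept even where the sign turned.

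Against 1 descending library alone, with no test possible, the adventitial medians were 0.90 to 0.93, 0.76 to 0.89 and 0.67 to 0.74. No paired analysis was possible because, between groups of libraries, only the descending aorta has more than 1 numbered library; the comparisons between classes already took the library as a block. The interactions were not run with a library left out. With up to 20% mitochondrial UMIs, or with the 92 genes used in clustering, the adventitial endothelial cluster stayed unnamed and gave no value. With 1 arch and 1 adventitial library, depth and library cannot be told apart from region, age or layer.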
